A study of Mus musculus with 24 samples.

Results

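The 9 genes described here encode interleukin 6 (IL-6) family cytokines and their receptors: the ligands Il6, Il11, Lif and Osm, the ligand-binding receptor chains Il6ra, Il11ra1, Lifr and Osmr, and the shared receptor chain Il6st, which encodes gp130. They were chosen by name, and all 9 were found among the 41388 genes of the count table, of which 27304 had at least 1 read. Part of the heart of 24 male wild-type mice, labelled Balb/c and of the BALB/cAnNCrl strain per the study's methods, was taken for RNA sequencing, 10, 15 or 21 days (D10, D15 and D21) after immunization, from 4 mice with experimental autoimmune myocarditis (EAM) and 4 control mice at each time point. All mice, controls included, received 200 µl of emulsion in supplemented complete Freund's adjuvant on day 0 and again on day 7, and pertussis toxin on day 0. The EAM emulsion held 100 µg of a myosin heavy chain alpha peptide, and the control emulsion held PBS in its place. The control hearts are thus adjuvant-treated hearts, not untouched ones, and EAM hearts were picked for sequencing, as far as possible, for the presence of inflammation.

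IL-6 family cytokines are secreted proteins that bind a receptor chain of their own and then recruit gp130. The receptor complex activates Janus kinases, which phosphorylate STAT3, and STAT3 in turn induces acute-phase genes and its own feedback inhibitor, Socs3. IL-6 and IL-11 bind the non-signalling chains encoded by Il6ra and Il11ra1 and signal through paired gp130. LIF signals through a gp130 and LIF receptor pair and oncostatin M, in mice mainly, through a gp130 and oncostatin M receptor pair. In the heart, cardiac myocytes and fibroblasts carry several of these receptors, and infiltrating leucocytes are a known source of IL-6 and oncostatin M.

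The promoters of the ligands Il6, Il11 and Lif are shown for the motifs they hold, together with that of Socs3, the feedback inhibitor whose level is given below. RefSeq promoters on GRCm38.p6 were matched for 8 of the 9 members, all but Osm, with 11 start sites, and each sequence is the 250 bases before a start site, 5′ to 3′ on the gene's strand. Capitals mark matches, on either strand, to the AP-1 letters TGANTCA, the STAT letters TTCNNNGAA or the NF-kB letters GGGNN followed by TTTCC.
Il6, chr5:30012864-30013113, plus strand: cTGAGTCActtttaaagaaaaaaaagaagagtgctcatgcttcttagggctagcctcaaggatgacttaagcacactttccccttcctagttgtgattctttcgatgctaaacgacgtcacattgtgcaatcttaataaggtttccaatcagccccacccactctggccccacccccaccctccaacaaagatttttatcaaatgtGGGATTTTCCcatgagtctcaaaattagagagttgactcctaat
Il11 (the downstream of 2 start sites), chr7:4778142-4778391, minus strand: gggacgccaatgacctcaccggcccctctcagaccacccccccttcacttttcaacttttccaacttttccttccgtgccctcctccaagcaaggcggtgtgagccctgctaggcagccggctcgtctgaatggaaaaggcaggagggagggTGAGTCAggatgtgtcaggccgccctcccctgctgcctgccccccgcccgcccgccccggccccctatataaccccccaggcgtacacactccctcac
Lif, chr11:4257318-4257567, plus strand: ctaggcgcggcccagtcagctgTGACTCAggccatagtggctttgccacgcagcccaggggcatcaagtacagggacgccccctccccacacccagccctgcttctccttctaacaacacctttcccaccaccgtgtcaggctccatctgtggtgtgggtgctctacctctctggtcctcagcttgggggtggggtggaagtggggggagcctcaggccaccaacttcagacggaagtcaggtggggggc
Socs3, chr11:117969367-117969616, minus strand: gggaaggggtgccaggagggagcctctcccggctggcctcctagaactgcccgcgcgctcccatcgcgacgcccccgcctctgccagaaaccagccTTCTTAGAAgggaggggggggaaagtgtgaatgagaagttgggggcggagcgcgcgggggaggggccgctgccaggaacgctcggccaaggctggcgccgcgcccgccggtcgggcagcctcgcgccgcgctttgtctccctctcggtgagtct
The Il6 promoter held an AP-1 match from -249 to -243 and an NF-kB match from -44 to -35, counted back from the start site. The Il11 and Lif promoters each held an AP-1 match, from -98 to -92 and from -228 to -222, and the Socs3 promoter a STAT match from -154 to -146. These letters are common: of 32851 mouse promoter windows of this length, 6.75% held the AP-1 letters, 7.02% the STAT letters and 1.41% the NF-kB letters. The other Il11 start site and the windows of Il6ra, Il11ra1, Il6st, Osmr and Lifr held none of them.

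Lif and Osm are neighbours on chromosome 11 (GRCm38; 4257557 to 4272514 and 4236420 to 4241026, both on the plus strand), 16531 bp apart, and Osmr and Lifr lie 215645 bp apart on chromosome 15. On the same build Il6 spans 30013114 to 30019981 of chromosome 5, Il11 spans 4772373 to 4782859 of chromosome 7, Il6ra spans 89864059 to 89913196 of chromosome 3, Il11ra1 spans 41699989 to 41769474 of chromosome 4 and Il6st spans 112464070 to 112510086 of chromosome 13. All 9 genes are protein-coding, and no member's exons overlap those of another. An exon of Ccl27a overlaps exons of Il11ra1 on the opposite strand, and Il11ra1 has near-identical copies named Il11ra2, so the Il11ra1 values are less certain than the others. Whether the counting used strand was not stated in the methods or labels.

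Library totals ran from 15814863 to 24980864 assigned reads. At D15 all EAM totals, 21617982 or more, were above all control totals, 19958265 or less, and at D21 all EAM totals, 19276313 or less, were below all control totals, 19593359 or more. The share of mitochondrial reads was 6.10 to 7.14% in D15 control and 3.19 to 4.31% in D15 EAM hearts, and its part in the D15 values was not tested. Levels are given as CPM, read counts scaled to a common library size after TMM normalization, which scales the libraries so that most genes do not differ, with hearts listed in order of replicate number. In a single library 3 reads correspond to 0.105 to 0.2004 CPM on that scale, a limit that covers counting error only. The 4 D21 EAM libraries carry another library code than the other 20, so at D21 the code and EAM cannot be told apart. The p-values measure the spread between hearts of a group. Heart muscle markers such as Myh6 had reads in every library, and the summed level of 7 such markers was 28199.9 to 33435 CPM in D10 control hearts.

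In control hearts the receptors were far more abundant than the ligands. Per kilobase of exon (RPKM, here CPM divided by exon length), Il6st was highest at 33.9 ± 1.91 (SD, n = 12 control hearts), followed by Il11ra1 at 13.6 ± 0.900, Lifr at 7.604 ± 0.455, Osmr at 3.54 ± 1.15 and Il6ra at 1.14 ± 0.172. The ranges of these 5 receptors over the 12 control hearts did not overlap. The ligands lay below them, with Lif at 0.167 ± 0.0612, Il6 at 0.147 ± 0.110, Osm at 0.127 ± 0.0610 and Il11 at 0.0302 ± 0.0281 RPKM. The ranges of Lif, Il6 and Osm overlapped, so their order is not resolved. Il11 was at the detection limit, with at most 4 reads in any control heart and none in 3 of the 12.

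In the 4 D15 EAM hearts the order on the same per-length scale was different. Il6 reached 18.7 ± 7.66 RPKM (SD, n = 4) and was second only to Il6st at 39.2 ± 3.85. Osmr followed at 10.7 ± 0.987 and Il11ra1 at 9.53 ± 0.291, and the ranges of Il6 and Osmr, and of Osmr and Il11ra1, overlapped. Il6ra was at 6.33 ± 0.486 RPKM and Lifr at 5.26 ± 0.687, with overlapping ranges. Osm at 2.97 ± 0.170, Lif at 2.47 ± 1.07 and Il11 at 2.35 ± 2.27 RPKM overlapped with each other.

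**Figure D1:**
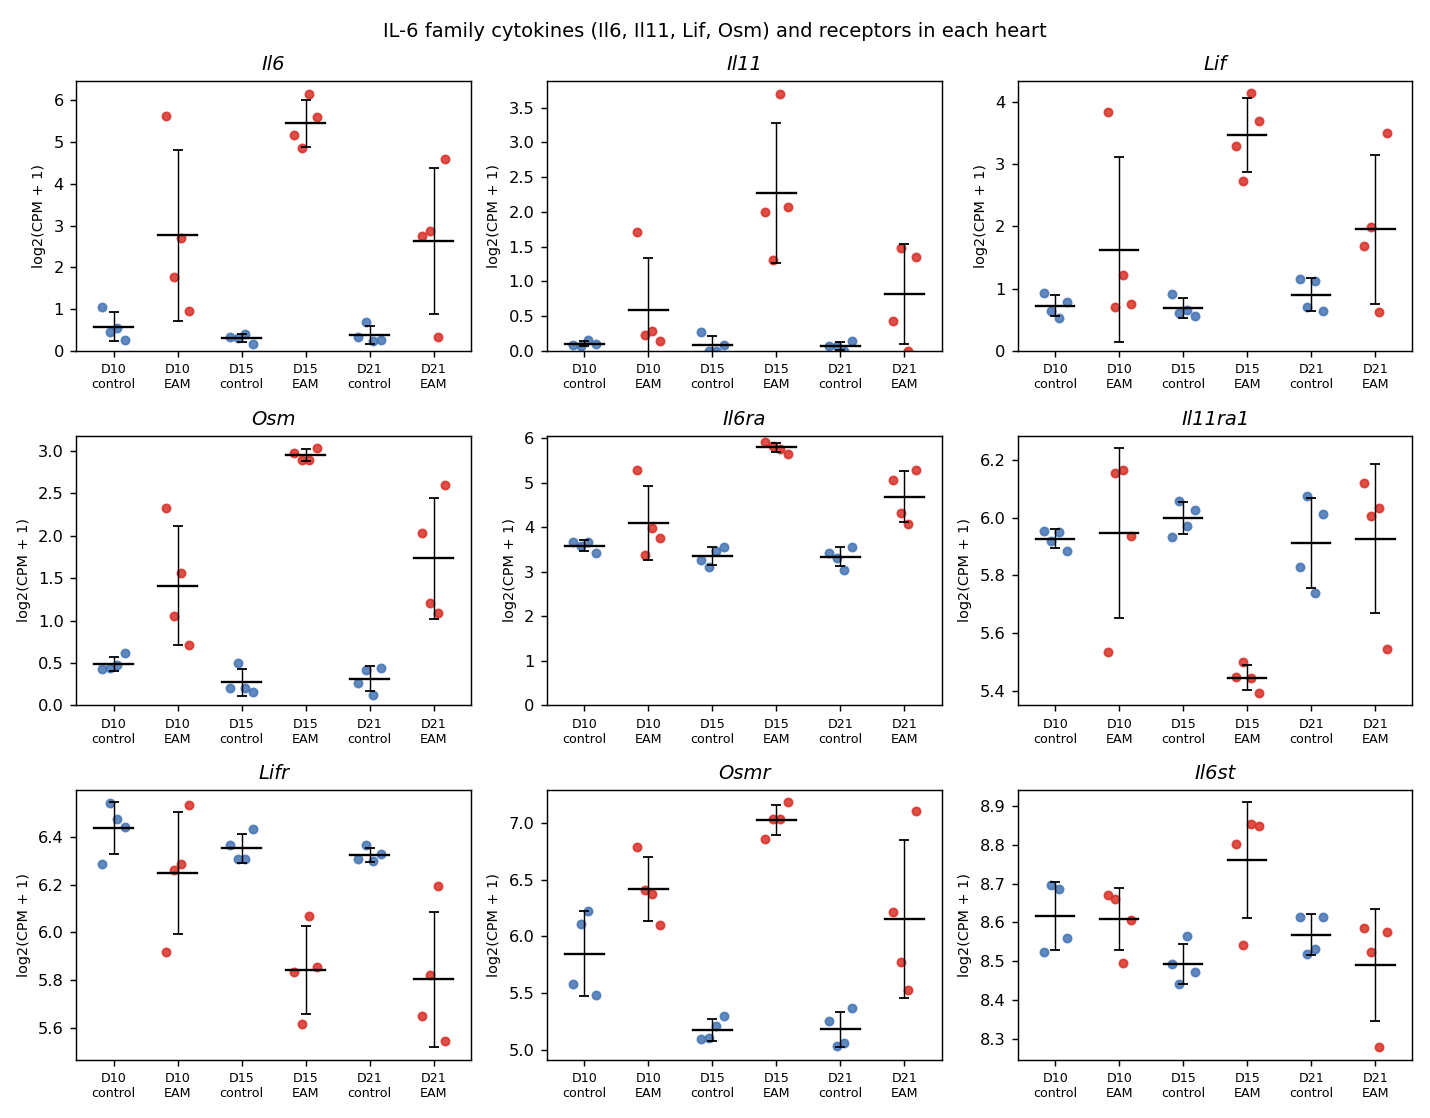
Level of each of the 9 genes as log2(CPM + 1) in each of the 24 hearts, 4 per group, with control hearts in blue and EAM hearts in red, where horizontal lines are group means and bars are SD, and the vertical scale differs between panels and does not start at 0 for Il11ra1, Lifr, Osmr and Il6st. At D15 the EAM hearts lie above all control hearts for Il6, Il11, Lif, Osm, Il6ra and Osmr and below all control hearts for Il11ra1 and Lifr.

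The first comparison asked which of the family differed between EAM and control hearts at D15. All 4 ligands rose, as did Il6ra and Osmr, with fold changes from 3.79 for Osmr to 194 for Il6. With limits of 0.01 on the FDR (Benjamini-Hochberg over 15693 genes, quasi-likelihood test of edgeR) and of 2-fold on the change, 6 of 9 members were induced and 0 repressed. Over all genes tested, 18.1% were induced and 12.9% repressed at these limits. Il11ra1 and Lifr passed the FDR limit in the other direction but changed by less than 2-fold, as 31.1% of all genes were lower at that FDR with no fold limit.

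Il6, the founding ligand of the family, was at 0.2604, 0.236, 0.311 and 0.118 CPM in the D15 control hearts and at 35.2, 28.2, 70.5 and 47.8 CPM in the EAM hearts. Every EAM heart was far above every control heart, and the lowest and highest EAM hearts differed by less than the groups did. Its log2 fold change was 7.60 ± 0.42 (SE, adjusted p = 4.9e-07).

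Osm encodes oncostatin M, which is made mainly by myeloid cells and activated T cells. It was at 0.156, 0.413, 0.155 and 0.118 CPM in control hearts and at 6.91, 6.44, 6.41 and 7.21 CPM in EAM hearts. The 4 EAM hearts were nearly alike, whereas 1 control heart, with 7 reads, stood above the other 3, which held 2 or 3 each. The 4 control libraries together held 15 Osm reads, so the control level is near the counting limit. On the log2 scale the fold change was 5.02 ± 0.26 (SE, adjusted p = 3.1e-07).

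Lif encodes leukaemia inhibitory factor, a ligand that acts on cardiac myocytes among other cells. Its level was 0.885, 0.531, 0.5695 and 0.471 CPM in control hearts and 8.78, 5.67, 16.6 and 11.96 CPM in EAM hearts. The groups did not overlap, and the EAM hearts varied more among themselves than for Osm. The log2 fold change of Lif was 4.14 ± 0.39 (SE, adjusted p = 1.3e-05).

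Il11, whose product acts mainly on stromal cells such as fibroblasts, was at 0.208, 0, 0 and 0.0589 CPM in control hearts and at 2.995, 1.47, 11.9 and 3.201 CPM in EAM hearts. The third EAM heart stood above the others, and the groups did not overlap. The 4 EAM libraries together held 479 Il11 reads and the 4 control libraries 5, so the fitted log2 fold change of 6.06 ± 1.03 (SE, adjusted p = 5.1e-04) is imprecise. Without the third EAM heart or any other single heart it stayed between 5.13 and 7.67 and past the limits.

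Among the receptors, Il6ra, the IL-6-binding chain, was at 8.65, 7.62, 10.1 and 10.8 CPM in control hearts and at 59.6, 55.9, 53.6 and 49.6 CPM in EAM hearts. The spread within either group was small beside the gap between them. EAM over control gave a log2 fold change of 2.59 ± 0.11 (SE, adjusted p = 1.2e-07).

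Osmr, the chain that pairs with gp130 for oncostatin M, was at 33.2, 33.4, 35.98 and 38.3 CPM in control hearts and at 115, 130.5, 130.3 and 144 CPM in EAM hearts. The groups were again well apart, and the log2 fold change was 1.92 ± 0.08 (SE, adjusted p = 1.2e-07). Osmr thus rose by a smaller factor than its ligand but from a much higher starting level.

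Lifr, the closely related chain that binds LIF, moved the other way. It was at 81.5, 78.2, 78.1 and 85.5 CPM in control hearts and at 55.95, 47.97, 66.1 and 56.9 CPM in EAM hearts, all of them below every control heart. The log2 fold change was -0.47 ± 0.09 (SE, adjusted p = 0.00109).

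Il11ra1, the IL-11-binding chain, was also lower, at 60.2, 65.6, 61.8 and 64.2 CPM in control hearts and 42.6, 44.2, 42.6 and 41.04 CPM in EAM hearts. The 4 EAM hearts lay close together below all controls, and the log2 fold change was -0.52 ± 0.05 (SE, adjusted p = 1.7e-05). Il6st, the shared signalling chain, was at 359, 347, 377 and 354 CPM in control hearts and 445, 371, 462 and 459.9 CPM in EAM hearts. For Il6st 1 EAM heart lay within the control range, and the log2 fold change of 0.31 ± 0.09 (SE, adjusted p = 0.0106) missed both limits.

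Across the D15 comparison 6 of 9 members had all EAM hearts above all control hearts and 2 had all of them below. Of all genes tested, 34.5% lay entirely above and 35.9% entirely below. The median log2 fold change was 5.54 over the 4 ligands, beside 0.02 over all genes tested. Il6, Osm and Il11 among these ligands entered through the EAM hearts alone, so that median was partly set by the filter.

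**Figure D2:**
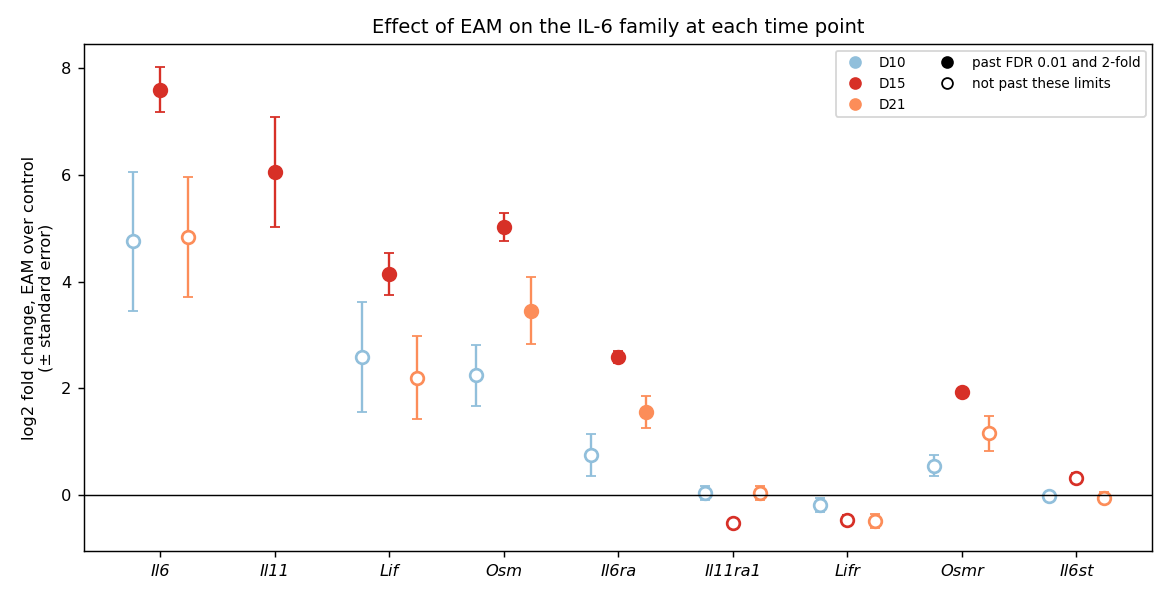
Fitted log2 fold change of EAM over control hearts with its standard error (bars) for each gene at D10, D15 and D21, where filled points are past an FDR of 0.01 and 2-fold, open points are not, and Il11 was tested at D15 only. The 4 ligands, Il6ra and Osmr are filled at D15, Osm and Il6ra at D21, and no gene at D10.

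At D10 the question was whether the family already differed early in the disease. None of the 8 members tested passed the limits, and 0.0% of the 15029 genes tested did so in either direction. Il6, Lif, Osm and Osmr were higher in EAM hearts at an unadjusted p under 0.05, which 9.71% of all genes tested were, and the count with the limits applied was also 0 by DESeq2, limma-voom and the likelihood ratio test.

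Il6 at D10 was at 1.08, 0.359, 0.449 and 0.198 CPM in control hearts and at 48.6, 2.38, 5.51 and 0.9499 CPM in EAM hearts. The first EAM heart was as high as the D15 EAM hearts, while the fourth lay within the control range. Its log2 fold change was 4.75 ± 1.31 (SE, adjusted p = 0.328) and, without the first EAM heart, 2.45 ± 0.64 (SE, adjusted p = 0.345). With all hearts, the adjusted p of Il6 was 0.0131 by DESeq2, 0.01395 by the likelihood ratio test and 0.392 by limma-voom.

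Osm was the only member with all 4 D10 EAM hearts above all controls, which held for 4.41% of all genes tested. It was at 0.342, 0.359, 0.393 and 0.529 CPM in control hearts and at 4.02, 1.08, 1.95 and 0.633 CPM in EAM hearts, again with the first heart highest. With at most 8 reads in any D10 control heart, Osm passed the read filter through the EAM hearts alone. The log2 fold change of Osm was 2.24 ± 0.57 (SE, adjusted p = 0.328), and 1.57 ± 0.41 (SE, adjusted p = 0.345) without the first EAM heart. By the other 3 tests its adjusted p with all hearts was 0.0414, 0.0282 and 0.392, in the same order.

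Lif at D10 was at 0.913, 0.563, 0.449 and 0.727 CPM in control hearts and at 13.3, 0.623, 1.34 and 0.686 CPM in EAM hearts. Only the first EAM heart stood clearly apart from the controls. Its log2 fold change was 2.59 ± 1.03 (SE, adjusted p = 0.328) with that heart and 0.40 ± 0.36 (SE, adjusted p = 0.672) without it.

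Il11 at D10 was at 0.0571, 0.0512, 0.112 and 0.0661 CPM in control hearts and at 2.25, 0.1699, 0.223 and 0.106 CPM in EAM hearts, with 51 of the 60 EAM reads in the first heart. Too few hearts reached 10 reads to pass the read filter, and edgeR with no read filter gave a log2 fold change of 3.22 (adjusted p = 0.378). A two-sided exact permutation test of mean log2(CPM + 1) gave p = 0.0571, where 4 against 4 hearts cannot go below 0.0286.

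Osmr at D10 was at 46.7, 68.02, 73.8 and 43.7 CPM in control hearts and 109, 84.1, 81.9 and 67.7 CPM in EAM hearts, with overlapping ranges. The D10 controls were themselves spread out, and the log2 fold change was 0.55 ± 0.20 (SE, adjusted p = 0.328), or 0.41 ± 0.18 without the first EAM heart. Il6ra was at 11.8, 10.96, 11.7 and 9.71 CPM in control hearts and 37.8, 9.35, 14.9 and 12.6 CPM in EAM hearts. Only the first EAM heart exceeded the controls by a wide margin, and the log2 fold change of Il6ra was 0.75 ± 0.39 (SE, adjusted p = 0.3604), or 0.14 ± 0.15 without that heart.

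The remaining receptor chains had small fold changes at D10. Lifr ranged from 77.1 to 92.2 CPM in control hearts and from 59.3 to 91.7 CPM in EAM hearts, and Il11ra1 from 58.1 to 61.0 and from 45.4 to 70.8 CPM. The first EAM heart was the lowest of the EAM hearts for both genes. Il6st ranged from 367 to 414 CPM in control hearts and from 360.1 to 407 CPM in EAM hearts. The log2 fold changes were -0.19 ± 0.13 (SE, adjusted p = 0.438) for Lifr, 0.03 ± 0.13 (SE, adjusted p = 0.913) for Il11ra1 and -0.02 ± 0.08 (SE, adjusted p = 0.8996) for Il6st.

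At D21 the comparison asked what remained late in the disease. Osm and Il6ra were past the limits, 2 of the 8 members tested and both induced, beside 4.13% of the 15266 genes tested that were induced and 1.16% repressed. Osm, Il6ra and Osmr had all EAM hearts above all controls, as 17.8% of all genes tested did, and Lifr had all EAM hearts below, as 18.7% did.

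Osm at D21 was at 0.203, 0.336, 0.0875 and 0.358 CPM in control hearts and at 3.104, 1.31, 1.14 and 5.08 CPM in EAM hearts. All 4 EAM hearts were above the controls, with the fourth highest and the third lowest. With at most 7 reads in any D21 control heart, Osm again passed the read filter through the EAM hearts alone. On the log2 scale the fold change was 3.46 ± 0.63 (SE, adjusted p = 0.00796).

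Il6ra at D21 was at 9.81, 8.98, 7.26 and 10.8 CPM in control hearts and at 32.2, 19.1, 15.97 and 38.3 CPM in EAM hearts, with the fourth heart highest and the third lowest. EAM over control gave a log2 fold change of 1.55 ± 0.30 (SE, adjusted p = 0.00916). Both calls depended on single hearts: neither Osm nor Il6ra passed without any 1 control heart or without EAM heart 1 or 2, only Osm passed without EAM heart 4, and without EAM heart 3 Il6, Lif, Osm, Il6ra and Osmr all passed. The share of all genes that passed in these fits is not given, so the calls describe the members only.

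Il6 at D21 was at 0.254, 0.624, 0.175 and 0.205 CPM in control hearts and at 5.72, 6.26, 0.267 and 23.2 CPM in EAM hearts. The third EAM heart lay within the control range and the fourth was close to the D15 EAM level. The log2 fold change was 4.84 ± 1.12 (SE, adjusted p = 0.0156), and leaving out single hearts gave 3.71, without the fourth EAM heart, to 5.38.

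Lif was at 1.22, 0.624, 1.18 and 0.563 CPM in control hearts and 2.22, 2.996, 0.534 and 10.4 CPM in EAM hearts, where the third heart was below all controls. Its log2 fold change was 2.20 ± 0.78 (SE, adjusted p = 0.0582), and leaving out single hearts gave values from 1.12, without the fourth EAM heart, to 2.54, without the third. Il11 was at 0.0508, 0.04801, 0 and 0.102 CPM in control hearts and 0.345, 1.798, 0 and 1.54 CPM in EAM hearts, with too few hearts at 10 reads to pass the read filter. The same exact permutation test gave p = 0.143 for Il11 at D21, and edgeR with no read filter a log2 fold change of 4.09 (adjusted p = 0.0298).

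Osmr at D21 was at 37.3, 31.8, 32.4 and 40.2 CPM in control hearts and 73.2, 53.7, 45.2 and 137 CPM in EAM hearts. Again the fourth EAM heart was highest and the third lowest, and the log2 fold change of 1.15 ± 0.33 (SE, adjusted p = 0.0308) missed the FDR limit. Lifr was at 78.1, 81.5, 77.7 and 79.3 CPM in control hearts and 49.1, 55.5, 72.2 and 45.7 CPM in EAM hearts, with a log2 fold change of -0.49 ± 0.13 (SE, adjusted p = 0.0208). The order of the EAM hearts for Lifr was the reverse at its ends, with heart 3 highest and heart 4 lowest.

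Il11ra1 and Il6st did not differ detectably at D21. Il11ra1 ranged from 52.4 to 66.4 CPM in control hearts and from 45.7 to 68.6 CPM in EAM hearts, and Il6st from 365 to 391 and from 309 to 383 CPM. The log2 fold changes were 0.04 ± 0.13 (SE, adjusted p = 0.818) for Il11ra1 and -0.05 ± 0.10 (SE, adjusted p = 0.721) for Il6st.

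Whether the effect of EAM itself differed between time points was tested in a single fit of all 24 hearts. From D10 to D15 the effect grew past the limits for 2 of 9 members, Il6ra by 1.79 ± 0.45 (SE, adjusted p = 0.004296) and Osmr by 1.32 ± 0.35 (SE, adjusted p = 0.00548) on the log2 scale, beside 5.38% of the 16318 genes tested with a higher and 7.35% with a lower log2 fold change at D15 past the limits. For Osmr this holds a fall of the control mean, from 58.1 CPM at D10 to 35.2 CPM at D15, beside a rise of the EAM mean from 85.8 to 130 CPM. The ligands had less certain differences, of 2.80 ± 1.84 (SE, adjusted p = 0.214) for Il6, 2.72 ± 0.84 (SE, adjusted p = 0.0136) for Osm, 1.501 ± 1.26 (SE, adjusted p = 0.333) for Lif and 2.79 ± 2.30 (SE, adjusted p = 0.324) for Il11. Leaving out single hearts gave 2.18 to 5.10 for Il6, 2.43 to 3.40 for Osm, 1.15 to 3.69 for Lif and 1.86 to 4.88 for Il11. Without the first D10 EAM heart 5 members passed, Il6, Lif and Osm in addition. The share of all genes that passed in that fit is not given, so this count describes the members only. Il6ra did not pass without D10 EAM heart 3 or 4 or D15 control heart 2, with adjusted p-values up to 0.0105. Osmr did not pass without any of those, nor without D10 control heart 2 or 3, D10 EAM heart 2, D15 control heart 1 or D15 EAM heart 2 or 4, with adjusted p-values up to 0.0136.

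The effect on Il11ra1 was lower at D15 than at D10, with a difference of -0.60 ± 0.17 (SE, adjusted p = 0.00797), past the FDR limit but by less than 2-fold. From D15 to D21 no member's effect differed past the limits, beside 0.919% of all genes with a lower and 2.74% with a higher log2 fold change at D21 than at D15, and here the library code cannot be told apart from the D21 EAM group. The estimates were -2.76 ± 1.97 (SE, adjusted p = 0.294) for Il6, -1.55 ± 0.88 (SE, adjusted p = 0.191) for Osm, -1.03 ± 0.45 (SE, adjusted p = 0.0869) for Il6ra, -0.76 ± 0.35 (SE, adjusted p = 0.104) for Osmr and 0.59 ± 0.17 (SE, adjusted p = 0.0152) for Il11ra1. Without the fourth D21 EAM heart the difference for Osmr, -1.19, passed the limits.

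Among control hearts no member differed between time points past the limits. The lowest p-values were those of Osmr, which was at 58.1 ± 15.1 CPM (SD, n = 4) at D10, 35.2 ± 2.43 at D15 and 35.5 ± 4.03 at D21. Each of the 4 D10 control hearts was above every later control heart for Osmr. The log2 difference was -0.72 ± 0.25 (SE, adjusted p = 0.418) for D15 against D10 and -0.71 ± 0.25 (SE, adjusted p = 0.194) for D21 against D10. In these comparisons 0.0858% and 0.0919% of all genes were lower past the limits, and 0.00613% and 0.123% higher. The D10 effect of EAM was thus measured against controls with a higher mean Osmr level than later, and with all 12 control hearts as controls, an alternative chosen after seeing the data, Il6, Lif, Osm and Osmr passed the limits at D10, beside 4.07% of all genes higher with those controls.

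The opposite movement of Osmr and Lifr can be read as a ratio within each heart, which needs no scaling between libraries. Per kilobase, the Osmr to Lifr ratio was 0.363 to 0.410 in D15 control hearts and 1.75 to 2.42 in D15 EAM hearts. At D10 it was 0.452 to 0.746 in control hearts and 0.657 to 1.64 in EAM hearts. At D21 it was 0.348 to 0.451 in control hearts and 0.556, 0.860, 1.33 and 2.66 in EAM hearts in ascending order. Lifr mRNA exceeded Osmr mRNA in all 12 control hearts, and Osmr exceeded Lifr in all 4 EAM hearts at D15, in heart 1 at D10, and in hearts 1 and 4 at D21.

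**Figure D3:**
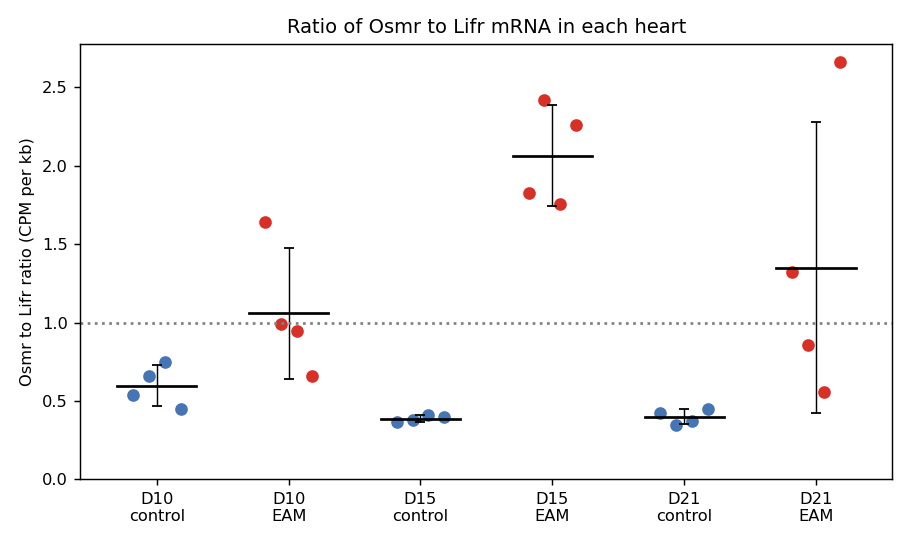
Ratio of Osmr to Lifr mRNA, each in CPM per kilobase of exon, in each of the 24 hearts, with control hearts in blue and EAM hearts in red, where lines are group means, bars are SD and the dotted line marks equal levels. All control hearts lie at or below 0.746 and all D15 EAM hearts at or above 1.75.

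Between control and EAM groups, the mean level of leucocyte mRNA moved with those of the ligands, Il6ra and Osmr. Ptprc, which encodes the pan-leucocyte antigen CD45, was at 16.5 to 20.7 CPM in D15 control hearts and at 243 to 305 CPM in D15 EAM hearts. At D10 it was at 194 CPM in the first EAM heart and at 27.7 to 56.7 CPM in the other 3, beside 23.9 to 38.6 CPM in controls. At D21 it ran from 48.9 CPM in the third EAM heart to 228 CPM in the fourth, beside 15.0 to 29.4 CPM in controls. Within a group the order of hearts could differ. In D15 EAM heart 3 Ptprc was the lowest of its group, at 243 CPM, and Il6, at 70.5 CPM, Lif and Il11 were the highest. In bulk tissue, more or fewer cells of a type and more or less RNA per cell cannot be told apart.

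Per unit of Ptprc mRNA the members behaved differently from each other. Il6 amounted to 0.568 to 1.74% of Ptprc CPM in D15 control hearts and to 10.99 to 28.95% in D15 EAM hearts, with no overlap. Osm was 0.568 to 2.5% in control hearts and 2.26 to 2.63% in EAM hearts at D15, with ranges that overlapped through control heart 2 alone, which held 7 Osm reads. Without that heart, left out after its value was seen, the control range was 0.568 to 0.929%. With all hearts the Osm share also overlapped at D10, at 0.888 to 2.21% and 1.52 to 3.89%, and at D21, at 0.583 to 1.82% and 1.36 to 2.32%. Osmr at D15 was 185 to 202% of Ptprc in control hearts and 37.6 to 53.5% in EAM hearts, and Il6ra 46.1 to 56.7% and 16.5 to 22.02%. The Il6 share overlapped at the other time points, at 0.8287 to 2.81% in control and 2.28 to 25.1% in EAM hearts at D10 and 0.697 to 3.39% and 0.546 to 10.2% at D21. The Osmr share overlapped at D10, at 121 to 259% and 56.6 to 304%, and did not at D21, at 137 to 216% and 49.1 to 92.3%. Likewise the Il6ra share overlapped at D10, at 30.5 to 41.1% and 19.5 to 33.7%, and did not at D21, at 36.8 to 48.7% and 16.8 to 32.7%. These ratios describe the hearts and were not tested, and the control shares of Il6 and Osm rest on few reads.

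**Figure D4:**
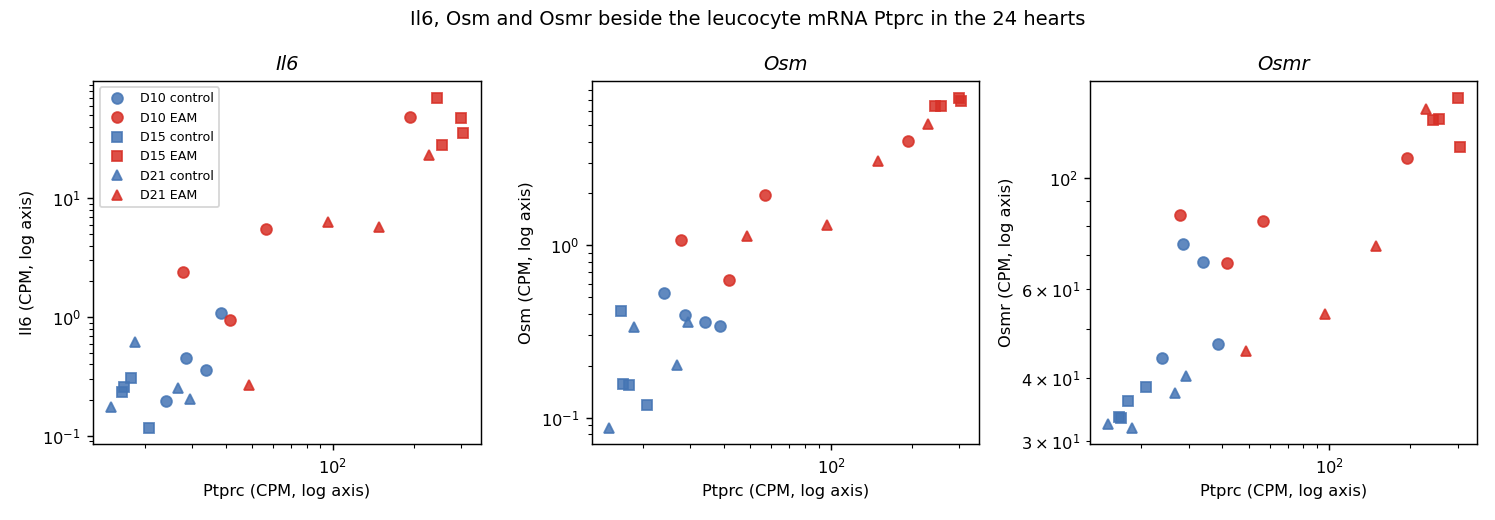
CPM of Il6, Osm and Osmr (vertical, log axes) against CPM of Ptprc (horizontal, log axis) in the 24 hearts, with control hearts in blue, EAM hearts in red, circles for D10, squares for D15 and triangles for D21. The first D10 EAM heart, with Ptprc at 194 CPM, lies near the D15 EAM hearts for Il6, and the third D21 EAM heart, with Ptprc at 48.9 CPM, lies among the controls for Il6. The third D15 EAM heart, with the lowest Ptprc of its group at 243 CPM, has the highest Il6 of that group.

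Markers of other cell types also moved with EAM, and their part in the members' values was not tested. At D15 the summed level of 8 monocyte and macrophage markers was 446 to 495 CPM in control hearts and 3083 to 4248 CPM in EAM hearts, and that of 7 neutrophil markers 16.8 to 82.1 and 553 to 950.0 CPM. The sum of 7 T cell markers was 2.24 to 3.23 and 54.3 to 77.9 CPM, whereas that of 5 B cell markers overlapped, at 0.824 to 2.19 and 2.02 to 12.01 CPM. The 6 fibroblast markers did not move together: 1 was induced, the collagen gene Col1a1, 1 was repressed, the gelsolin gene Gsn, and the median log2 fold change was 0.36. Their sum was 2868 to 3445 CPM in control and 4334 to 7082 CPM in EAM hearts, but 2723 to 3256 and 1595 to 2648 CPM without Col1a1. The sum of the 6 endothelial markers was lower in EAM hearts, at 1033 to 1313 and 733 to 859 CPM, as was that of the 7 cardiac myocyte markers, at 26639 to 31299.8 and 7228 to 18508 CPM. At D21 the macrophage sum was 386 to 623 CPM in control and 1140 to 3898 CPM in EAM hearts, the T cell sum 3.24 to 4.45 and 19.4 to 77.7 CPM, and the endothelial sum 1303 to 1488 and 702 to 1141 CPM, with no overlap, whereas the myocyte sum overlapped, at 27574 to 29373 and 13514 to 31998 CPM. At D10 the ranges of these 4 sums overlapped, and the highest EAM heart reached 2782 CPM for macrophage markers beside at most 1024 CPM in control hearts. At D21 the neutrophil sum was 11.9 to 96.5 CPM in control and 107 to 409 CPM in EAM hearts, and the B cell sum 1.10 to 2.03 and 2.32 to 8.92 CPM. The D21 fibroblast sum without Col1a1 was 2899 to 3655 and 1743 to 2670 CPM, also without overlap, whereas with Col1a1 it overlapped. At D10 the neutrophil, B cell and fibroblast sums overlapped. No marker of these lists was without reads throughout a group. Lifr and Il11ra1 moved at D15 in the direction of the endothelial and myocyte sums, and Osmr, Il6ra and the ligands in that of the sums of the macrophage, neutrophil and T cell markers.

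Genes whose levels followed a member most closely over the 24 hearts were found by the root mean square difference of log2(CPM + 1) after centring each gene on its mean, among 3276 variable genes for Osmr and 3277 for Lifr. This is a description of likeness over 24 hearts that share 6 groups. No genes are given for Osm, whose levels of 0.0875 to 7.21 CPM are compressed on a scale that adds 1 to each CPM. For Osmr they were Il1r1, Xdh and Nfkbiz, with differences of 0.179, 0.187 and 0.205, and for Lifr they included Fbxo32 and Neo1, with 0.241 and 0.243. The match for Lifr was looser beside its own SD of 0.302 than that for Osmr beside its SD of 0.744.

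Further genes of the pathway were taken as lists: other ligands and receptors of the family, signalling proteins, sheddases that release soluble IL-6 receptor, and STAT3 and acute-phase targets. The lists were chosen with earlier results of these data known, so their counts beside all genes are no independent comparison. Of the other family genes, 6 of 11 were tested at D15, and 3 were induced and 1 repressed, beside 18.1% and 12.9% of all genes tested. Il27 and Ebi3, the subunits of the gp130-binding cytokine IL-27, rose by 4.79 ± 0.45 (SE, adjusted p = 1.3e-05) and 3.04 ± 0.22 (SE, adjusted p = 2.6e-06) on the log2 scale. Clcf1, which encodes the cardiotrophin-like cytokine, rose from 1.79 ± 0.304 CPM to 9.93 ± 2.48 CPM (SD, n = 4), by 2.51 ± 0.22 (SE, adjusted p = 7.5e-06). Il27ra, the IL-27 receptor chain, had a log2 fold change of 0.66 ± 0.12 (SE, adjusted p = 7.2e-04), under 2-fold.

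Ctf1, which encodes the heart-expressed ligand cardiotrophin 1, was the member of that list that was repressed at D15. It was at 13.6 ± 0.672 CPM in control hearts and 4.69 ± 1.59 CPM in EAM hearts (SD, n = 4), with a log2 fold change of -1.50 ± 0.22 (SE, adjusted p = 2.1e-04). Cntfr, the ciliary neurotrophic factor receptor, had a log2 fold change of -0.64 ± 0.27 (SE, adjusted p = 0.0518) at D15 and was the 1 gene of 5 tested that was repressed at D21, as 1.16% of all genes were, with a log2 fold change of -1.54 ± 0.21 (SE, adjusted p = 0.00491).

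Of the 11 signalling genes, all tested at D15, 4 were induced and 0 repressed, beside the same 18.1% and 12.9% of all genes. Socs3 rose from 9.48 ± 0.555 CPM in control hearts to 245 ± 35.9 CPM in EAM hearts, a log2 fold change of 4.73 ± 0.12 (SE, adjusted p = 9.7e-09). Socs1, a further inhibitor of cytokine signalling, rose by 4.85 ± 0.24 (SE, adjusted p = 2.2e-07) and the kinase gene Jak2 by 1.44 ± 0.06 (SE, adjusted p = 1.3e-07), and the kinase gene Tyk2 was induced as well. The more abundant signalling genes changed by less than 2-fold, with log2 fold changes of 0.79 ± 0.10 (SE, adjusted p = 5.8e-05) for Stat3, 0.39 ± 0.07 (SE, adjusted p = 4.3e-04) for Jak1 and -0.78 ± 0.13 (SE, adjusted p = 4.8e-04) for the phosphatase gene Ptpn11. At D21 only Socs3 of the 11 passed the limits, beside 4.13% of all genes induced, with a log2 fold change of 3.49 ± 0.66 (SE, adjusted p = 0.008996).

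Both sheddase genes were tested. Adam17 was induced at D15 by 1.23 ± 0.10 (SE, adjusted p = 4.8e-06), and Adam10 had a log2 fold change of 0.85 ± 0.08 (SE, adjusted p = 1.3e-05), under 2-fold. Neither passed the limits at D10 or D21.

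Of the 19 STAT3 and acute-phase target genes, 17 were tested at D15 and 16 were induced, beside 18.1% of all genes. The list was chosen with earlier results of these data known, so this is a description and not an independent comparison. The median log2 fold change was 2.74 over the 17 and 0.02 over all genes tested. Saa3, an acute-phase protein, rose from 0.979 ± 0.242 CPM to 412 ± 95.4 CPM, by 8.74 ± 0.25 (SE, adjusted p = 1.4e-08). Timp1, an inhibitor of matrix metalloproteinases, rose by 6.40 ± 0.16 (SE, adjusted p = 9.7e-09), Lcn2 by 5.78 ± 0.41 (SE, adjusted p = 2.3e-06) and Serpina3n by 4.19 ± 0.27 (SE, adjusted p = 1.1e-06). Reg3b, which encodes a secreted lectin, rose from 0 reads in all 4 D15 control hearts to 0.673 ± 0.1497 CPM in EAM hearts, at least 3.80-fold higher against a floor of 3 reads per library. It entered the test through the EAM hearts alone. Mt1, a metallothionein, rose by 1.31 ± 0.17 (SE, adjusted p = 8.0e-05).

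Hamp, which encodes the iron regulator hepcidin, was the exception. Its log2 fold change was 3.01 ± 0.56 (SE, adjusted p = 0.302) at D10, from 2.35 ± 0.929 CPM in control hearts to 19.1 ± 15.1 CPM in EAM hearts (SD, n = 4), and -0.05 ± 0.61 (SE, adjusted p = 0.949) at D15. At D21 it was the 1 target of 16 tested that was repressed, from 13.6 ± 3.82 CPM in control hearts to 0.189 ± 0.114 CPM in EAM hearts, a log2 fold change of -6.06 ± 0.39 (SE, adjusted p = 4.9e-04). The effect of EAM on Hamp was lower past the limits at D15 than at D10, by -3.10 ± 0.82 (SE, adjusted p = 0.0056), and at D21 than at D15, by -6.00 ± 1.02 (SE, adjusted p = 0.00115). At D21, 8 targets were induced, beside 4.13% of all genes, among them Saa3, Timp1, Lcn2, Serpina3n and Mt1. That count was 0 without EAM heart 1 or any 1 control heart, 2 without EAM heart 2, 7 without EAM heart 4 and 13 without EAM heart 3. The share of all genes that passed in those fits is not given.

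At D10 no gene of these 4 lists passed the limits. At an unadjusted p under 0.05, 14 of the 16 targets tested were higher in EAM hearts, beside 9.71% of all genes, and 10 were without the first EAM heart, beside 6.17%. Socs3 had a log2 fold change of 1.99 ± 0.49 (SE, adjusted p = 0.328) at D10, and Saa3 one of 2.70 ± 0.999 (SE, adjusted p = 0.328). Many of the targets were at higher levels in D10 control hearts than later. At an unadjusted p under 0.05, 10 of 17 were lower in D15 than in D10 control hearts and 10 of 17 in D21 control hearts, beside 3.24% and 4.68% of all genes. Hamp differed in the other direction, with log2 differences of 2.30 ± 0.61 (SE, adjusted p = 0.191) for D15 and 2.53 ± 0.61 (SE, adjusted p = 0.0436) for D21 against D10 control hearts. Serpina3n passed the limits in the latter comparison, from 139.6 ± 68.4 CPM in D10 to 25.9 ± 6.96 CPM in D21 control hearts (SD, n = 4). Saa3 was at 25.05 ± 18.9 CPM in D10 control hearts, above its D15 and D21 control levels of 0.979 ± 0.242 CPM and 0.674 ± 0.222 CPM. The neutrophil markers moved with them, as 7 of 7 were lower at an unadjusted p under 0.05 in D15 and in D21 than in D10 control hearts, and their sum was 130 to 246 CPM in D10, 16.8 to 82.1 CPM in D15 and 11.9 to 96.5 CPM in D21 control hearts. Their part in the target values was not tested. For these targets the effects of EAM at D10 and later were measured from different control levels.

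**Figure D5:**
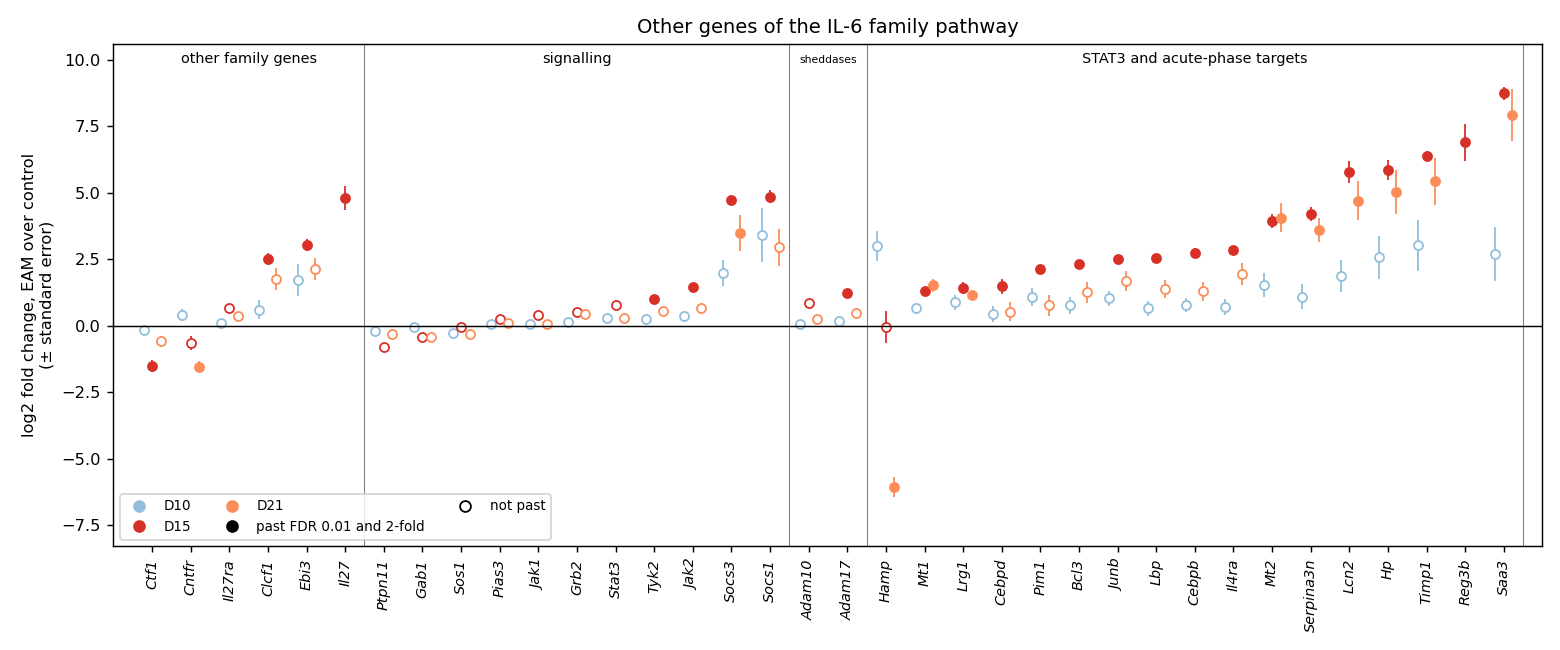
Fitted log2 fold change of EAM over control hearts with its standard error (bars) for the tested genes of the 4 other lists at D10, D15 and D21, where filled points are past an FDR of 0.01 and 2-fold and open points are not. At D15, 16 of 17 targets are filled and above 0, Ctf1 is filled and below 0, and Hamp is filled and far below 0 at D21 only.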

How the data were processed

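Hearts of 24 mice were sequenced in part, and the read counts per Ensembl gene deposited by the authors were used as they stood, without normalization. Per the labels and the study's methods the authors aligned reads to GRCm38 with HISAT2 2.0.4, removed duplicates with Picard and assigned reads with featureCounts. Groups and replicate numbers came from the sample labels, 0 count columns were left without a sample, and the 92 spike-in rows held 0 reads and were left out. Duplicate removal can lower the counts of abundant genes more than those of low ones.

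Within a time point, a gene was tested if 4 or more of the 8 samples had 10 or more reads. TMM factors were computed, and the EAM and control groups compared in edgeR 4.0.16 (glmQLFit and glmQLFTest, R 4.3.3). Genes with a Benjamini-Hochberg FDR under 0.01 over all genes kept and a change of 2-fold or more were called. Differences of the EAM effect and of control hearts between time points were contrasts in a fit of all 24 samples. Il11 at D10 and D21 missed the read filter and was compared with an exact permutation test of log2(CPM + 1). Alternatives were DESeq2 1.42.0, limma 3.58.1 (voom), the likelihood ratio test, other scalings, filters, limits and control hearts, a replicate block, and leaving out each heart. The tests were tested on simulated data. Tables and plots were made with pandas 2.3.3, matplotlib 3.10.9, scipy 1.17.1 and numpy 2.4.6 (Python 3.11.15).

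The members and gene lists were chosen with earlier results of these data known. All 9 members are named. Of each other list the 3 tested genes with the highest mean CPM, the 3 with the largest fitted change at D15 and any gene called against most of its list are named. Tyk2, Col1a1 and Gsn were named, and the fibroblast sum without Col1a1 and the Osm share without 1 control heart added, after their values were seen. Some genes are not reported here and were left out of these lists and their counts for a reason unrelated to their values. What a replicate number marks is not stated. The deviations of same-numbered EAM and control hearts from their group means correlated at D21 in all 4 pairs (0.101 to 0.307), not in all pairs at D10 (-0.09 to 0.407) or D15 (-0.11 to 0.0426), so a pairing of hearts was taken as possible at D21 only, on that weak correlation alone. D21 EAM heart 1 correlated best with a control heart of another number. The D21 fold changes and p-values given come from tests without pairing, and the replicate block was an alternative.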

Additional observations from a re-analysis of the deposited data

Results flagged for a closer look

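In D10 EAM heart 1 the levels of 3 ligands lay far from the other 3 hearts of the group: Il6 at 48.6 CPM beside 0.950 to 5.51 CPM, Lif at 13.3 CPM beside 0.623 to 1.34 CPM, and Il11 at 2.25 CPM beside 0.106 to 0.223 CPM. Ptprc was at 194 CPM in that heart and at 27.7 to 56.7 CPM in the other 3. In D15 EAM heart 3, Il11 was at 11.9 CPM beside 1.47 to 3.20 CPM in the others. In D15 control heart 2, Osm was at 0.413 CPM beside 0.118 to 0.156 CPM in the others. These 5 values exceeded Dixon's 95% limit for 4 samples, out of 54 groups examined, where chance exceeds it in about 1 in 20 groups.

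The effect of EAM differed between D15 and D10 for Il6ra, by 1.79 on the log2 scale, and for Osmr, by 1.32. Both differences were tested directly, with adjusted p-values of 0.0043 and 0.00548 from the quasi-likelihood test of edgeR on 24 hearts. The Osmr difference includes a fall of the control mean from 58.1 CPM at D10 to 35.2 CPM at D15.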

How the results depend on the processing

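At D15 the count of 6 induced members was the same under every alternative and without any single heart, and with no fold limit 2 members were lower, Il11ra1 and Lifr. Some of the other counts moved. At D21 the 2 induced members became 4 with DESeq2, the likelihood ratio test, a fit of all 24 samples, an FDR under 0.05 or all 12 control hearts, 1 with total counts in place of TMM and 0 with limma-voom, and leaving out single hearts gave 0 to 5. At D10 the count of 0 became 4 with all 12 control hearts as controls, chosen after seeing the data. The 2 members whose effect grew from D10 to D15 ranged from 0 to 5 on leaving out single hearts, and the 0 whose effect was lower at D21 than at D15 from 0 to 1. Apart from the D10 fit with all 12 control hearts, the share of all genes called under each setting is not given. The counts thus describe the members only, and the cause of these changes was not tested.

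With a replicate block, which treats same-numbered hearts as pairs, the count at D21 stayed at 2, and the block changed no other count of members past the limits. The D21 values given in the Results come from tests without this pairing.

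Signs changed only for differences that were not called. Il6st at D10 had a log2 fold change of 0.035 with total counts, 0.0595 with all 12 control hearts and -0.053 to 0.034 without single hearts. The Lifr difference of D21 and D15 was -0.017 with limma-voom, -0.0203 with RLE size factors, -0.16 with total counts, -0.0028 with the replicate block and -0.15 to 0.084 without single hearts. In control hearts at D21 against D10, total counts gave 0.051 for Il11ra1 and 0.011 for Il6st. Without single hearts Il11ra1 ran from -0.037 to 0.15 at D10, from -0.0303 to 0.15 at D21 and from -0.064 to 0.049 in control hearts at D21 against D10, and Il6st from -0.089 to 0.0083 at D21. In control hearts at D15 against D10, Il11 ran from -1.63 to 0.36 and Lif from -0.33 to 0.10. Total counts moved the median log2 change of all genes from 0.02 to 0.17 at D15.

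Depth limits Il11 most, with 4 or 5 reads over the 4 control hearts of a time point. Il6 and Osm rest on few control reads as well, 17 to 37 and 15 to 28 per time point. The 4 hearts per group limit the precision of all differences, and the D21 EAM libraries differ from the rest in library code.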
